A study of Drosophila melanogaster with 8 samples.

Results

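Peptidoglycan recognition proteins (PGRPs) are the family of fly proteins that bind the peptidoglycan of bacterial cell walls. The members described here were chosen by name from the family: the sensors PGRP-SA, PGRP-SD, PGRP-LC and PGRP-LE, the amidases PGRP-LB, PGRP-SB1, PGRP-SC1a and PGRP-SC2, and the regulators PGRP-LF and PGRP-LA. Of these 10 genes, 9 had a row among the 14622 gene identifiers of the expression table. PGRP-SC1a was not analysed here, nor were PGRP-SB2 and PGRP-SC1b, which belong to the family but not to the named set.

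Transcripts were measured by RNA-seq in heads of 3-day-old male Drosophila melanogaster grown at 18 °C. The AdarEA flies (y, sc, AdarE374A; 4 libraries) carry a point mutation that leaves the ADAR protein in place but without its RNA editing activity, and the study's methods describe the line as backcrossed to white Canton-S. The WT flies were white Canton-S (4 libraries). The mutant line thus differs from WT at y and sc as well as at Adar, so an effect of those alleles or of linked sequence cannot be told apart from one of editing.

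The 2 best known fly immune pathways both start at PGRPs. Secreted PGRP-SA, helped by PGRP-SD, binds the lysine-type peptidoglycan of most Gram-positive bacteria and sets off a protease cascade that activates the Toll receptor. Membrane-bound PGRP-LC and the intracellular PGRP-LE bind the diaminopimelic acid type of Gram-negative bacteria and start the Imd pathway, which ends at the NF-kappaB factor Relish. Amidases cut peptidoglycan and so limit this signal, and PGRP-LF holds PGRP-LC in check at the membrane. Fat body, hemocytes and gut are the tissues best known for these responses, and a dissected head contains some fat body and blood cells beside brain and eye.

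Libraries held 12517490 to 24342035 reads in AdarEA and 9930607 to 19173154 in WT. Adar transcripts were present in all libraries, at 5029 ± 1372 normalized counts in AdarEA and 4050 ± 523 in WT (SD, n = 4), which does not test for a point mutation. Transcripts of w, the gene mutated in white flies, had at most 3 reads in any WT library and 134 to 189 normalized counts in AdarEA, so the groups differed at this locus too. Neuron and eye markers were abundant in all libraries, but not evenly. Sums over 9 eye genes were 377378 to 447668 normalized counts in AdarEA and 272131 to 336561 in WT, without overlap. With limma 3 of the 9 genes passed (1.21% of all genes tested), all higher in AdarEA (0.657% of all genes tested). DESeq2 called 6 of the 9 (5.14% of all genes tested). The groups did not overlap for 6 of the 9 (7.99% of all genes tested). Among these trpl was lower in AdarEA, at 12377 to 14315 normalized counts against 14830 to 16295 in WT. Sums over 6 neuron genes were 68864 to 83530 in WT, 71197 in AdarEA replicate 3 and 94675 to 112992 in the other AdarEA libraries. Only Syt1 among the 6 had separate groups, at 27080 to 52157 normalized counts in AdarEA and 17284 to 23420 in WT. The median log2 fold change of the 6 was -0.009, and 3 of them were above 0. The part of the eye and neuron genes in the results below was not tested. One library, AdarEA replicate 3, stood apart in immune transcripts and is therefore followed through the results. Nothing in the labels says whether libraries of 1 group came from separate fly cultures, so the p-values measure the spread between these libraries, which may be partly technical.

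In WT heads the most abundant family transcripts per length of exon were those of PGRP-LA and PGRP-LC. Levels between genes were compared as normalized counts (reads divided by 1 size factor per library) per kb of annotated exon. PGRP-LA stood at 258 ± 15.9 normalized counts per kb in WT and PGRP-LC at 200.5 ± 12.9 (SD, n = 4), and their WT ranges did not overlap. PGRP-SB1 followed at 153 ± 57.6 per kb, PGRP-SD at 105 ± 29.6 and PGRP-LE at 96.7 ± 6.19, each with a range that overlapped its neighbours in this order. PGRP-LB at 67.5 ± 18.4 and PGRP-LF at 65.2 ± 15.2 overlapped each other and lay below PGRP-LE in every WT library. PGRP-SA was lower again at 43.8 ± 10.2, and PGRP-SC2, an amidase known mainly from the gut, was at 1.45 ± 2.89 per kb.

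In AdarEA heads the order of the means depended on replicate 3. The amidase PGRP-SB1 averaged 1282 ± 1760 normalized counts per kb and the sensor PGRP-SD 335 ± 379, ahead of PGRP-LA at 323 ± 30.8 and PGRP-LC at 243 ± 42.8 (SD, n = 4). The SD of both leading members exceeded their mean, because single libraries ran from 147 to 3893 per kb for PGRP-SB1 and from 74.4 to 892 for PGRP-SD. Without AdarEA replicate 3 PGRP-SD averaged 149.9 ± 93.4 per kb, below PGRP-LA at 313 ± 28.5 and PGRP-LC at 223 ± 16.7, while PGRP-SB1 averaged 411 ± 316 (SD, n = 3). Exon lengths came from a newer annotation than the one the reads were aligned with, so the order is approximate.

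**Figure D1:**
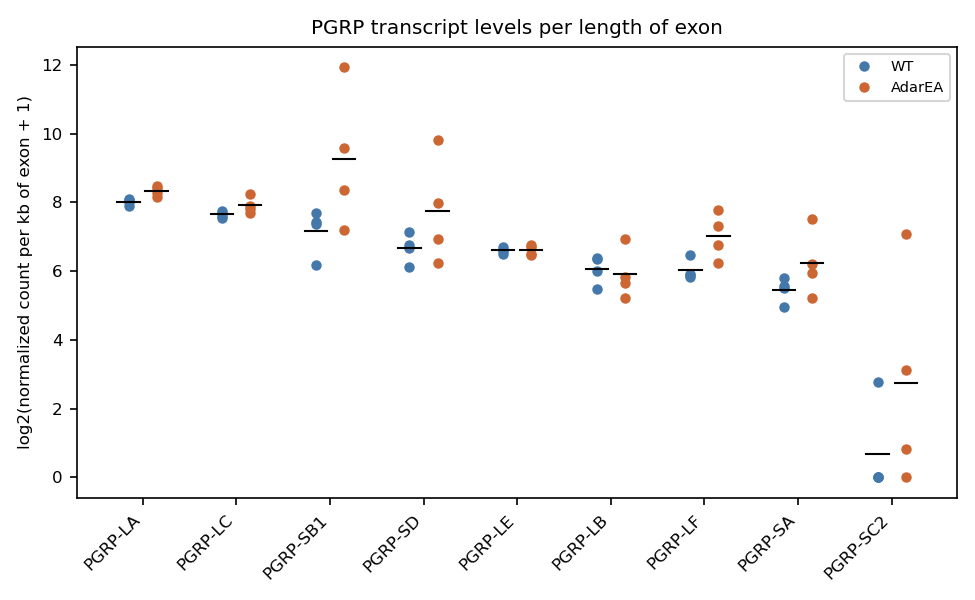
Level of each PGRP transcript per length of exon, as log2 of the normalized count per kb plus 1, in the 4 WT (blue) and 4 AdarEA (orange) libraries, ordered by the WT mean. Points are libraries and bars are group means on this scale; PGRP-SB1 and PGRP-SD spread widely in AdarEA, from 147 to 3893 and from 74.4 to 892 normalized counts per kb, while PGRP-LE stays between 87.9 and 108 in all 8 libraries.

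The main comparison asked whether PGRP transcript levels in heads without ADAR editing activity differ from those in WT. No member passed the test: 0 of the 9 members had a limma adjusted p under 0.05, where 1.21% of all 10347 genes tested did. Before adjustment 3 members had p under 0.05 (PGRP-LA, PGRP-LF and PGRP-SB1), against 12.7% of all genes, and all 3 were higher in AdarEA, where 7% of all genes were. The fold change was above 0 for 8 of the 9 members and for 49.3% of all genes. The 8 include PGRP-LE, at a log2 fold change of only 0.002, and PGRP-SC2, whose sign was set by the filter as given below. With edgeR on the recovered reads 0 members were called (1.22% of genes) and with DESeq2 2 were, PGRP-LF and PGRP-SB1 (5.14% of genes). DESeq2 gave PGRP-SC2 no adjusted p. The WT and AdarEA libraries did not overlap for 1 member, PGRP-LA, and for 7.99% of all genes tested (3.96% with AdarEA higher, as PGRP-LA was). PGRP-SC2 entered the test only through AdarEA replicate 3, since its mean count fell below the minimum of 10 without that library. In bulk heads, more cells of a type and more RNA per cell cannot be told apart.

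**Figure D2:**
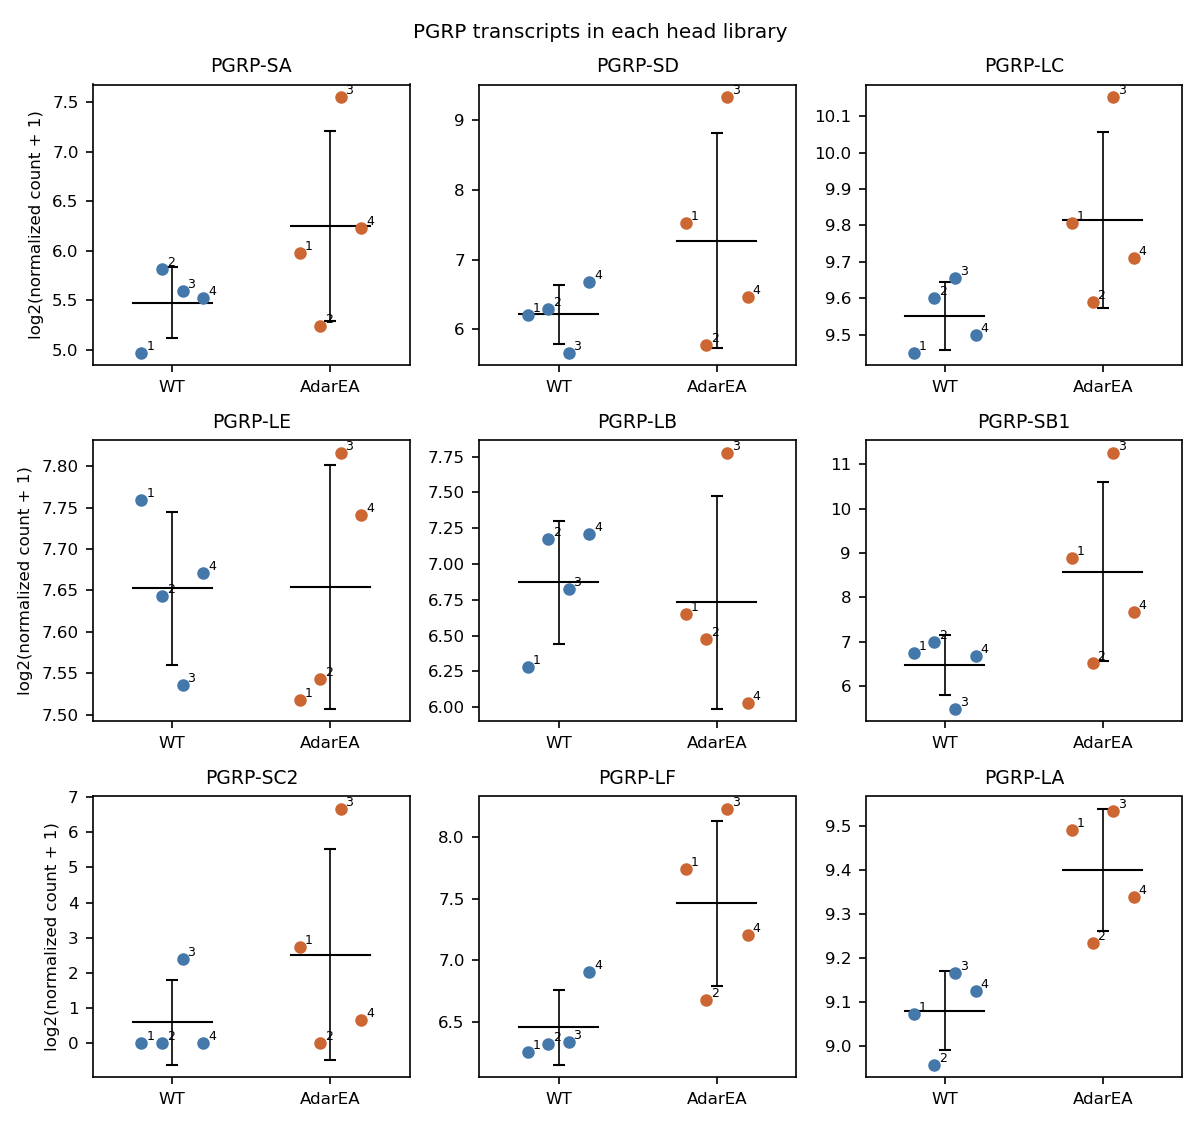
Level of each PGRP transcript in each library, as log2 of the normalized count plus 1, with a separate vertical scale per gene. Points are libraries labelled by replicate number, the horizontal bar is the group mean and the whisker 1 SD (n = 4). AdarEA replicate 3 is the highest of the 8 libraries for all 9 genes (PGRP-SC2 reaches the minimum count only through it), and the groups are fully separated only for PGRP-LA.

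Among the sensors of the Toll branch, PGRP-SA (FBgn0030310, on X) had normalized counts of 61.9, 36.9, 186 and 74.0 in AdarEA replicates 1 to 4. In WT it had 30.4, 55.3, 47.5 and 44.99. AdarEA replicate 3 was the highest library, while AdarEA replicate 2 lay within the WT range. The estimated log2 fold change (AdarEA over WT, with its SE, from 4 libraries each) was 0.77 ± 0.42, with an adjusted p of 0.505 in limma and a 95% interval from -0.18 to 1.72. Without AdarEA replicate 3 it was 0.34. As few as 23 reads stood behind the lowest WT value, so PGRP-SA was measured with limited counting precision.

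PGRP-SD (FBgn0035806, on 3L), the secreted partner of PGRP-SA, was more uneven. Its normalized counts were 183, 53.6, 643 and 87.2 in AdarEA and 72.8, 77.4, 49.6 and 102 in WT. AdarEA replicates 3 and 1 stood above all WT libraries, and the other 2 AdarEA libraries fell inside the WT range. AdarEA replicate 3 reached 8.53 times the WT mean and AdarEA replicate 1 reached 2.43 times. The log2 fold change was 1.06 ± 0.64 (limma adjusted p = 0.563; 95% interval -0.38 to 2.51), and 0.38 without AdarEA replicate 3. The annotated exon shares 35 bases with CG7492 on the opposite strand, whose counts stayed between 698 and 802 in all libraries.

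PGRP-LC and PGRP-LE, which start the Imd pathway, were steadier than PGRP-SA and PGRP-SD. PGRP-LC (FBgn0035976, on 3L), the main membrane receptor of the pathway, had normalized counts of 894, 769, 1137 and 837 in AdarEA and 699, 775, 805 and 723 in WT. Again AdarEA replicate 3 was highest, but AdarEA replicate 2 lay below 2 of the WT libraries. The log2 fold change was 0.26 ± 0.12 (limma adjusted p = 0.404; 95% interval -0.01 to 0.53).

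PGRP-LE (FBgn0030695, on X), which senses peptidoglycan fragments inside cells, was the least changed member. It had 182, 185, 224 and 213 normalized counts in AdarEA and 216, 199, 184 and 203 in WT. The groups overlapped over most of their range, and the log2 fold change was 0.00 ± 0.10 (limma adjusted p = 0.998). The 95% interval, from -0.23 to 0.23, leaves room for changes of up to 0.854-fold or 1.17-fold.

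No amidase passed the test. PGRP-SB1 (FBgn0043578, on 3L), a secreted amidase whose transcript is known to be induced by bacterial infection, had normalized counts of 474, 91.4, 2425 and 203 in AdarEA. In WT it had 107, 128, 44.2 and 102. AdarEA replicate 3 was 25.4 times the WT mean, AdarEA replicate 1 was 4.97 times, AdarEA replicate 4 was 2.12 times and AdarEA replicate 2 was 0.958 times. The log2 fold change was 2.09 ± 0.85 (limma adjusted p = 0.338; 95% interval 0.19 to 3.995). It was 1.21 without AdarEA replicate 3 and 2.78 without AdarEA replicate 2 (adjusted p = 0.355 and 0.111). DESeq2 gave it an adjusted p of 0.0364, edgeR one of 0.169, and over all the alternatives tried the adjusted p ran from 0.0364 to 0.575.

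PGRP-SC2 (FBgn0043575, on 2R) was detected in few libraries. It had 5, 0, 91 and 1 reads in AdarEA replicates 1 to 4 and 0, 0, 4 and 0 in WT, or 99.6 normalized counts in AdarEA replicate 3 and at most 5.73 in any other library. Nearly all its reads came from a single library, and its fitted log2 fold change of 1.91 ± 1.47 (limma adjusted p = 0.667) depended on the pseudocount, being 2.28 with 0.5 and 1.19 with 5. Sequence shared with the close family copies PGRP-SC1a and PGRP-SC1b could also affect how its reads were assigned.

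PGRP-LB (FBgn0037906, on 3R), the amidase best known for dampening Imd signalling, did not follow PGRP-SB1. Its normalized counts were 99.7, 87.9, 218 and 64.3 in AdarEA and 76.7, 144, 112 and 147 in WT. AdarEA replicate 3 was highest here too, yet each of the other AdarEA libraries lay below at least 3 of the 4 WT libraries. The log2 fold change was -0.14 ± 0.35 (limma adjusted p = 0.929; 95% interval -0.93 to 0.65). It was -0.49 without AdarEA replicate 3 and 0.10 without AdarEA replicate 4, so its sign rested on single libraries.

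**Figure D3:**
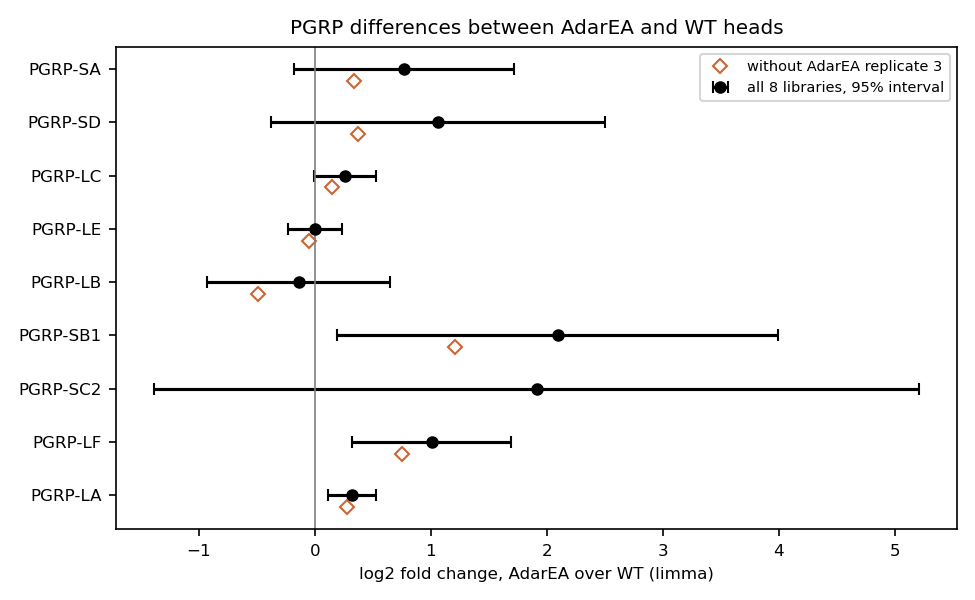
Difference of each PGRP transcript between AdarEA and WT, as the limma log2 fold change with its 95% interval (black, all 8 libraries), and the estimate without AdarEA replicate 3 (open diamonds; PGRP-SC2 then falls below the minimum count). The interval is narrowest for PGRP-LA, at 0.12 to 0.52, and widest for PGRP-SC2, at -1.38 to 5.21.

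PGRP-LF, PGRP-LC and PGRP-LA lie next to each other in the same orientation on 3L. PGRP-LF (FBgn0035977), a membrane protein that binds PGRP-LC and blocks its signalling, had 213, 101, 299 and 147 normalized counts in AdarEA and 75.4, 78.9, 79.8 and 119 in WT. Only AdarEA replicate 2 overlapped WT, where replicate 4 was the highest library. The log2 fold change was 1.01 ± 0.30 (limma adjusted p = 0.176; 95% interval 0.32 to 1.69). It was 0.75 without AdarEA replicate 3 (adjusted p = 0.227), and 1.27 without AdarEA replicate 2, where the gene passed (adjusted p = 0.0443; 1.8% of all genes were called in that fit). DESeq2 called it as well (adjusted p = 0.0186), edgeR did not (adjusted p = 0.149), and the adjusted p over all alternatives ran from 0.0186 to 0.389.

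The count of PGRP-LF has a limit in its position. Of its 1355 annotated exon bases, 602 lie opposite exons of UGP, an abundant gene of sugar metabolism, and whether counting used the strand is not given in the sources used here. UGP had 1905, 1474, 2909 and 2856 normalized counts in AdarEA and 1510, 1580, 1084 and 1621 in WT. Its own log2 fold change was 0.62 (limma adjusted p = 0.282), and its part in the PGRP-LF count was not tested.

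PGRP-LA (FBgn0035975), a member not known to bind peptidoglycan that modulates Imd signalling, was the one with separate groups. It had normalized counts of 720, 601, 741 and 647 in AdarEA and 537, 496, 573 and 557 in WT. All 4 AdarEA libraries lay above all 4 WT libraries. The difference was small, a log2 fold change of 0.32 ± 0.09 or 1.25-fold (95% interval 1.08 to 1.44), and its limma adjusted p was 0.154. It was 0.28 without AdarEA replicate 3 (adjusted p = 0.217). The adjusted p was 0.0510 with DESeq2 and ran from 0.0510 to 0.378 over all alternatives.

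Of the family genes outside the named set, PGRP-LD (FBgn0260458, on 3L) was in the table. It had 232 to 287 normalized counts in AdarEA and 229 to 298 in WT, which gave 0.10 ± 0.11 on the log2 scale (adjusted p = 0.817 in limma). This count cannot be read as PGRP-LD alone, since 3563 of its 3957 exon bases are shared with Pmi on the same strand, which ran from 227 to 296. No named member had reads identical to those of another gene.

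How unequal the AdarEA libraries were depended on the member. On the log2 scale the SD within AdarEA was 2.02 for PGRP-SB1, 1.55 for PGRP-SD, 0.96 for PGRP-SA, 0.74 for PGRP-LB and 0.67 for PGRP-LF. Within WT the same genes had SDs of 0.67, 0.42, 0.36, 0.43 and 0.30. For PGRP-LC, PGRP-LE and PGRP-LA the AdarEA SD lay between 0.14 and 0.24, near the median over all tested genes of 0.20. Over all tested genes, 2.24% had an SD above 1 in AdarEA, and PGRP-SB1 and PGRP-SD were among them. PGRP-SC2 was too, but the filter fixed this, since that gene was tested only through AdarEA replicate 3.

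AdarEA replicate 3 was the highest of the 8 libraries for the 8 members that reach the minimum count without it, as it was for 21.7% of all tested genes. It was also highest for PGRP-SC2, where the filter fixed this. AdarEA replicate 1 came second for 5 of the 8 (3.2% of all tested genes had this order), the exceptions being PGRP-SA, PGRP-LE and PGRP-LB. PGRP-SB1 and PGRP-SD varied together across libraries (Pearson r = 0.97 over the 8 libraries, given as a description). PGRP-LE had r between 0.09 and 0.49 with the other members. These coefficients share the libraries of both groups.

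Genes outside the family with the most similar pattern were found by Pearson r on log2 values over the 8 libraries. For PGRP-SB1 they were Cyp309a2, Irc and GNBP-like3 (r = 0.99, 0.99 and 0.98). For PGRP-LF they were BomS1, CG11841 and CG8303 (r = 0.99, 0.97 and 0.97), BomS1 being a Bomanin, a short peptide secreted in the Toll response. For PGRP-SA the closest was MP1 (r = 0.998), which encodes a melanization protease. For PGRP-SD the first 2 were CG10332 and IM18 (both r = 0.99), which carried identical values and are 1 measurement. For PGRP-LE the highest r was 0.96, with Acsx3.

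The antimicrobial peptide genes, which are the outputs of both pathways, were also uneven between the AdarEA libraries. Summed over 11 Imd-type peptides (Diptericins, Attacins, Cecropins and Drosocin), AdarEA replicates 1 to 4 had 1570, 109, 15906 and 96.4 normalized counts, and WT libraries had 74.1 to 219. AdarEA replicates 3 and 1 were far above WT, and AdarEA replicates 2 and 4 were inside the WT range. Of the 9 tested genes, CecA1, CecA2 and CecC reached the minimum count only through AdarEA replicate 3, and the other 6 had AdarEA replicate 3 highest and replicate 1 second. The median log2 fold change of these 6 was 2.57, against -0.0029 over all genes tested, and it was 1.14 without AdarEA replicate 3. The calls over the 9 were 0 with limma (2 before adjustment, beside 12.7% of all genes), 0 with edgeR and 4 with DESeq2 (5.14% of all genes). Dro, which encodes Drosocin, had 230, 29.0, 3898 and 21.8 normalized counts in AdarEA and 4.74 to 18.0 in WT (log2 fold change 3.93 ± 1.40; limma adjusted p = 0.267, and 0.141 to 0.529 over the alternatives). Without AdarEA replicate 3 the estimate for Dro was 2.38. DESeq2 gave Dro no adjusted p, so the gene counts as not called there.

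The sum of the Toll-type effectors, listed as peptides driven mainly or in part by Toll, was high in AdarEA replicate 4 as well. Summed over the 16 of 18 listed genes in the table, AdarEA replicates 1 to 4 had 21643, 7367, 71775 and 14421 normalized counts and WT libraries 7210 to 8936. Drs, which encodes Drosomycin, and BaraA2 were the 2 listed genes not analysed here. AdarEA replicate 4, within the WT range for the Imd-type peptides, lay above it in this sum. Of the tested effectors, Mtk, Def, Drsl5 and BaraA1 were not above the WT range in that library. Of the 15 tested, BaraA1 reached the minimum count only through AdarEA replicate 3, and the median log2 fold change of the other 14 was 1.85 (1.22 without that library). The calls over the 15 were 0 with limma (11 had p under 0.05 before adjustment, beside 12.7% of all genes), 0 with edgeR and 8 with DESeq2 (5.14% of all genes). The 11 were not all in the same direction, since they include Def, which was lower in AdarEA (log2 fold change -3.27). Without AdarEA replicate 2 the limma count was 7 (1.8% of all genes). BomS5, a Bomanin, had 627, 173, 1320 and 472 normalized counts in AdarEA and 112 to 132 in WT (log2 fold change 2.07 ± 0.49; limma adjusted p = 0.0874, and 0.00109 to 0.239 over the alternatives). BomS1 and BomBc3, also Bomanins with no overlap between groups, had log2 fold changes of 2.04 ± 0.49 and 1.93 ± 0.55 (limma adjusted p = 0.0988 and 0.155). Without AdarEA replicate 3 the estimates for BomS5, BomS1 and BomBc3 were 1.62, 1.59 and 1.33. PGRP-SB1, PGRP-LF, PGRP-SA, PGRP-LA and PGRP-LC were likewise higher in AdarEA replicate 4 than in any WT library, and PGRP-SD, PGRP-LB and PGRP-LE were not.

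**Figure D4:**
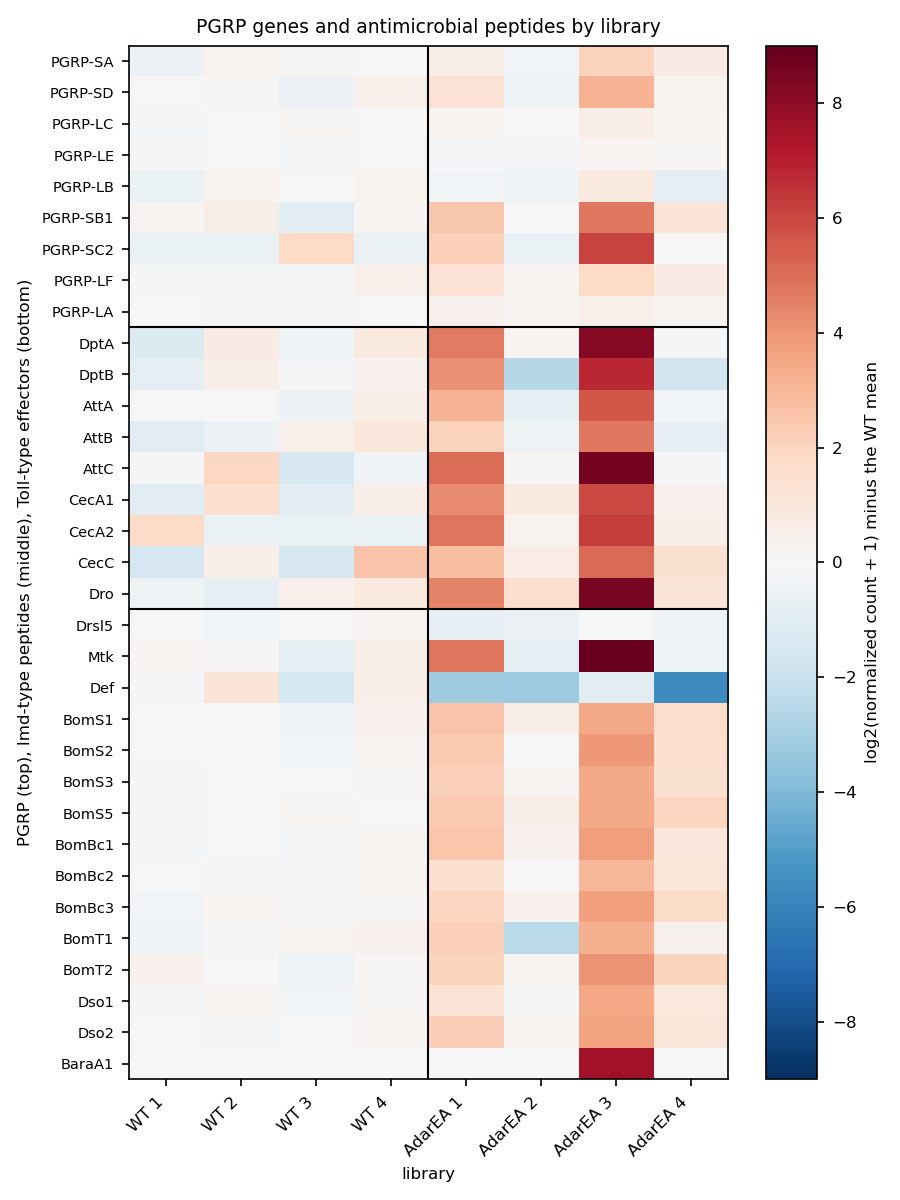
Level of the 9 PGRP genes (top), 9 tested Imd-type peptide genes (middle) and 15 tested Toll-type effector genes (bottom) in each of the 8 libraries, as the difference of log2(normalized count + 1) from the WT mean of that gene. Red is higher and blue lower; in AdarEA replicate 3 PGRP-SB1 stands 4.75 and AttC 8.62 above the WT mean, and AdarEA replicate 2 differs from it by 0.04 for PGRP-SB1 and by 0.13 for AttC.

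Other components of the pathways were read from the same fit, in which 12.7% of all genes had an unadjusted p under 0.05, 5.14% were called by DESeq2 and 7.99% had groups that did not overlap. Of the 4 GNBP genes, whose products bind beta-glucans or act with PGRP-SA, 0 passed with limma and edgeR and 1 with DESeq2 (2 with an unadjusted limma p under 0.05). That gene was GNBP-like3, a small secreted relative, named after its values were seen, with 291, 58.9, 1700 and 141 normalized counts in AdarEA and 37.8 to 71.5 in WT. Its log2 fold change was 2.20 ± 0.83 (limma adjusted p = 0.304, DESeq2 adjusted p = 0.0206), and 1.28 without AdarEA replicate 3. It had the library order of PGRP-SB1 within AdarEA.

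For the 8 genes of the extracellular Toll cascade, 0 passed with limma, edgeR or DESeq2 (2 with an unadjusted limma p under 0.05), and the median log2 fold change was 0.43 (0.16 without AdarEA replicate 3). Hayan, a protease of this cascade, was the 1 of the 8 with separate groups (7.99% of all genes), at 160 to 360 normalized counts in AdarEA and 114 to 150 in WT (log2 fold change 0.54 ± 0.25; limma adjusted p = 0.412). For the 8 genes from the Toll receptor to Dif and Dorsal, 0 passed with any of these tools (2 at an unadjusted p under 0.05) and the median was 0.15. Among them Tl, the receptor itself, had a log2 fold change of 0.23 ± 0.08 and Pli, a binding partner of the kinase Pelle, one of 0.25 ± 0.09 (limma adjusted p = 0.242 and 0.239), both with separate groups.

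Of 11 cytoplasmic Imd pathway genes, 0 passed with limma and edgeR and 1 with DESeq2 (2 with an unadjusted limma p under 0.05), with a median log2 fold change of 0.14. Uev1A, part of a ubiquitin-conjugating complex of the pathway, had separate groups at 1631 to 1769 normalized counts in AdarEA and 1363 to 1536 in WT (log2 fold change 0.22 ± 0.07; limma adjusted p = 0.193, DESeq2 adjusted p = 0.0488). Rel, which encodes Relish and was named after its values were seen, had 1761, 1393, 3060 and 1628 in AdarEA and 1156 to 1486 in WT (log2 fold change 0.51 ± 0.21; limma adjusted p = 0.362).

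Of 9 tested inhibitors of the Imd pathway outside the PGRP family, 0 passed with limma, edgeR or DESeq2 (3 with an unadjusted limma p under 0.05), with a median log2 fold change of -0.01. AdarEA replicate 3 was the highest library for 0 of the 9, beside 21.7% of all tested genes. The groups were separate for dnr1, which encodes a ubiquitin ligase that restrains the caspase Dredd, at 0.35 ± 0.11, and for the deubiquitinase gene CYLD, at 0.25 ± 0.08 (limma adjusted p = 0.176 and 0.217). pirk, whose product takes PGRP-LC off the membrane, had 207, 105, 185 and 141 normalized counts in AdarEA and 63.7 to 125 in WT (log2 fold change 0.69 ± 0.25; limma adjusted p = 0.288), and was named after its values were seen. Its highest library was AdarEA replicate 1, not replicate 3.

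Markers of the tissues that express these genes also moved between the groups and libraries. Summed over 10 fat body genes, AdarEA replicates 1 to 4 had 116579, 63343, 128325 and 113571 normalized counts and WT libraries 45490 to 59627, without overlap. With limma 1 of the 9 tested genes (Ilp6) passed, beside 1.21% of all genes. Most of the sum was apolpp, which encodes the main lipid carrier of the blood. Without it AdarEA libraries had 12536 to 28094 and WT libraries 12832 to 16493, which overlap. The AdarEA libraries had the order of PGRP-SB1 in the full sum only. In apolpp alone replicate 1 was highest, and in the other 9 genes replicate 4 came second. Over 9 hemocyte genes the sums were 3828, 3569, 7588 and 6570 in AdarEA replicates 1 to 4 and 3295 to 4193 in WT. Of the 8 tested, 0 passed in limma (3 before adjustment, beside 12.7% of all genes) or in edgeR and 1 in DESeq2 (5.14% of all genes). Hemocyte sums were highest in AdarEA replicates 3 and 4, where Hml alone had 4449 and 3387 normalized counts (852 to 1031 in WT). Pxn, also abundant, was lower on average in AdarEA, at 1660 ± 241 against 2120 ± 322 in WT (SD, n = 4). The log2 fold change was above 0 for 7 of the 8 tested hemocyte genes (49.3% of all genes). Of 11 midgut genes in the table, only 5 reached the minimum count, Amy-p only through AdarEA replicate 3, and betaTry and Jon65Ai had at most 3 reads in any library. The sums were 1178 to 4201 in AdarEA and 1071 to 1374 in WT, again highest in AdarEA replicate 3. LManII and Amy-d made up most of the sum in that library, at 2523 and 1433 normalized counts. In limma 1 of the 5 tested genes passed (1.21% of all genes), Vha100-4, which was lower in AdarEA. The part of these cell types in the PGRP levels was not tested.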

How the data were processed

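Heads of AdarEA and WT flies were sequenced by the authors as paired-end reads of ribosomal-RNA-depleted RNA, with 4 libraries per group. The labels name TopHat, featureCounts (Subread) and DESeq2 for processing and the builds dm3 and BDGP5; versions and the annotation are not given in the sources used here. The deposited signal is a read count per gene that the authors divided by 1 size factor per library. All values (100%) of each column were whole multiples of its smallest step within 0.001, so whole reads were recovered. The deposited fold changes, standard errors, test statistics and p-values were not used.

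Symbols matched 14023 of 14622 identifiers (95.9%). Chromosome arms, neighbours, exon overlaps and exon lengths were read from an Ensembl gene annotation (BDGP6.54), a newer build than that of the alignments, so no coordinates are given.

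The test was limma 3.58.1 in R 4.3.3 (lmFit, eBayes with trend) on log2(normalized count + 1), on the 10347 genes whose mean reached 10, with no covariate beside group and Benjamini-Hochberg adjustment over all of them at 0.05, two-sided. Fold changes on this scale understate changes of low genes. edgeR 4.0.16 (quasi-likelihood) and DESeq2 1.42.0 on the recovered reads, other scalings, pseudocounts and filters, a replicate block and leaving out each library were alternatives. The fits were tested on simulated data. Members and gene lists were chosen with earlier results of these data known. Named were all members, pathway genes past 0.05 or, up to 3 per list, with the largest differences among those without overlap, and the 3 genes most like each member, of which a selection is printed. The comparison of protein sequences was not run.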

Additional observations from a re-analysis of the deposited data

Results flagged for a closer look

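In each group of 4 libraries, the gap of the highest or lowest library to its neighbour was divided by the range of the group, on log2(normalized count + 1), and set against the 95% critical value of Dixon's test for 4 values. For the 9 named members and PGRP-LD this made 20 groups, of which chance would mark about 1, and 2 had a library apart. For PGRP-LF it was WT replicate 4, with a ratio of 0.876, at 119 normalized counts against 75.4 to 79.8 in the other WT libraries. For PGRP-SC2 it was WT replicate 3, with a ratio of 1, because its 4 reads stood against 0 in each of the other WT libraries. AdarEA replicate 3 was not apart by this measure for any member. The ratio stays low where another library is raised too, as AdarEA replicate 1 was for PGRP-SB1 and PGRP-SD. It therefore cannot show that AdarEA replicate 3 is ordinary.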

How the results depend on the processing

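Over the 18 alternatives, 160 fits of a named member could be made, and 151 kept the direction and the side of the threshold. These include PGRP-SC2 with DESeq2, which had no adjusted p and was counted as not called. PGRP-SC2 fell below the minimum at a mean of 50 and without AdarEA replicate 3. The sign of PGRP-LE reversed under TMM scaling (log2 fold change -0.002) and ran from -0.05 to 0.05 when 1 library was left out, and that of PGRP-LB ran from -0.49 to 0.10. The number of members called was 2 with DESeq2 (5.14% of all genes). It was 0 to 1 when 1 library was left out, the 1 being PGRP-LF without AdarEA replicate 2 (1.8% of all genes). Over all genes the count of 125 became 79 with a minimum mean of 50, 82 in limma without trend, 532 with DESeq2 and 38 to 186 when 1 library was left out (38 without WT replicate 2, 53 without AdarEA replicate 4, 55 without AdarEA replicate 1, 60 without WT replicate 3, 78 without WT replicate 4). Over the pathway lists the count of 0 became 2 with scaling by library totals (1.53% of all genes) and 14 with DESeq2 (5.14% of all genes). When 1 library was left out it was 0 to 7, the 7 being without AdarEA replicate 2 (1.8% of all genes). A replicate block gave 26 genes and 0 members, but same-numbered libraries did not deviate together (Pearson r of their deviations across genes 0.189, -0.188, -0.227 and -0.116), so the numbers do not pair them. The cause of these shifts was not tested. Depth limits PGRP-SC2 most, with 0 to 5 reads in 7 libraries.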

Other observations

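Among the Toll-type effectors, 2 genes did not share the direction of the others, and both are named here only because of their values. Def, which encodes Defensin, had 4.58, 4.39, 26.3 and 0 normalized counts in AdarEA and 46.3, 112, 16.2 and 76.1 in WT. Its estimate was -3.27 ± 0.93 on the log2 scale (SE, 4 libraries each, adjusted p = 0.154 in limma). AdarEA replicate 3, the highest library for 12 of the 14 tested genes that reach the minimum count without it, was also the highest AdarEA library for Def, but it lay below 3 of the 4 WT libraries. Without AdarEA replicate 3 the limma adjusted p of Def was 0.0458, and over the alternatives it ran from 0.0458 to 0.378. Drsl5, a relative of Drosomycin, stood at -0.41 ± 0.16 on the same scale (adjusted p = 0.312 in limma).

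BaraA1, which encodes the Baramicin A precursor, was also singled out after its values were seen. It had 185 normalized counts in AdarEA replicate 3 and 0 reads in each of the other 7 libraries, the same library in which PGRP-SC2 had 91 reads.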
